A study of Mus musculus with 16 samples.

Results

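Genes for storing, taking up and exporting iron were followed across the crypt and villus cells of the mouse small intestine before weaning. They are the 8 rows *Fth1*, *Ftl1*, *Tfrc*, *Slc11a2*, *Cybrd1*, *Mfi2*, *Slc40a1* and *Heph*, chosen by name out of 24421 genes listed, and all 8 were found in both matrices. Crypt-enriched isolates of small intestine came from outbred mice at postnatal day 16, either wild-type (WT) or ROBO-Crainbow (ROBO), and were sequenced cell by cell. The ROBO mice carry 1 copy each of the ROBO transgene and of Villin-Cre, which recombines the transgene in the intestinal epithelium, so that a recombined cell makes human RSPO3 or either of its fusions with PTPRK beside a fluorescent protein. The ROBO transgene stands behind the ubiquitous CAG promoter, and a cell that has not recombined makes only a control protein. The deposited cell names carry the genotype and a running number, so the 8 samples of a genotype could not be separated. Each genotype was therefore 1 pooled sample, no test between mice was possible, and every interval below is a 95% interval that covers counting error only.

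Iron enters the enterocyte, the absorptive cell of the villus, through the apical membrane, is held in ferritin inside the cell, and leaves through the basolateral membrane into the blood. Dividing cells of the crypt instead draw iron from the blood by binding transferrin. Part of this pathway is set after transcription: iron regulatory proteins bind short RNA hairpins called iron responsive elements when iron is scarce, which blocks translation where the hairpin lies in the 5′ untranslated region (UTR) and steadies the messenger where it lies in the 3′ UTR. RNA levels as measured here are not levels of protein.

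The hairpins are printed because they divide the genes into groups that the rule on names did not use. The UTRs of all protein-coding transcripts in GENCODE M21 (GRCm38) were searched, on the transcribed strand, for a C, 5 bases, the loop CAGTGN and 5 bases that pair with the 5 before the loop, with G-C, A-T and G-T pairs allowed. There were 7 matches in 4 of the 8 genes and none in the other 4, where only these letters were looked for. A hairpin with an extra or unpaired base among these pairs would be missed, so the other 4 genes are not shown to lack one. Of all genes with an annotated 5′ UTR, 0.148% held a match (31 of 20916), and of all with a 3′ UTR, 0.594% (129 of 21707). Each line gives 27 bases from 5′ to 3′ with the loop in capitals.
*Fth1* 5′ UTR, chr19:9982733-9982759, plus strand: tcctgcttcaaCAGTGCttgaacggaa
*Ftl1* 5′ UTR, chr7:45459780-45459806, minus strand: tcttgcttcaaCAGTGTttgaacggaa
*Slc40a1* 5′ UTR, chr1:45925466-45925492, minus strand: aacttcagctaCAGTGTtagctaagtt
*Tfrc* 3′ UTR, match 1, chr16:32631220-32631246, plus strand: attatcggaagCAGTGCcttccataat
*Tfrc* 3′ UTR, match 2, chr16:32631599-32631625, plus strand: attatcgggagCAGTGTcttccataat
*Tfrc* 3′ UTR, match 3, chr16:32631664-32631690, plus strand: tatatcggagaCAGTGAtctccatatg
*Tfrc* 3′ UTR, match 4, chr16:32631711-32631737, plus strand: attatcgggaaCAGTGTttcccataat
The storage genes and the exporter gene thus carry the hairpin ahead of the coding sequence, and the transferrin receptor gene carries it behind. A match is a description of these letters, not a measured binding site.

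The WT matrix held 1348 cells with 2682127 unique molecular identifiers (UMIs, the tags that count single RNA molecules) and a median of 1492 UMIs per cell, and the ROBO matrix held 1249 cells with 2428435 UMIs and a median of 1610. Clustering without the iron genes gave 13 clusters, named from marker lists, with 645 stem cell-like, 753 transiently amplifying-like, 248 bottom, 511 middle and 230 top enterocyte-like, 126 secretory-like, 30 enteroendocrine-like, 46 immune-like and 8 fibroblast-like cells. Isolates labelled as crypt cells thus also held villus enterocytes, in which *Lct*, *Sis* and *Ada* were among the leading genes. Stem cell-like and transiently amplifying-like cells are called crypt-like here, and middle and top enterocyte-like cells villus-like. Hemoglobin genes and *Alas2* were at 0 UMIs in every class, so RNA of red blood cells was not detected. Of the markers listed for the proximal intestine, *Gata4* had 220 UMIs in WT and 136 in ROBO and *Pdx1* 2 and 1. Of those listed for the ileum, *Fabp6* had 2 and 0, *Slc10a2* 0 in both and *Gata5* 137 and 156. The study's protocol for isolating crypts takes the proximal part of the small intestine, where most dietary iron is absorbed.

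Of the 8 genes, 7 were higher in villus-like than in crypt-like cells of both genotypes and *Tfrc* was lower. A gene was counted when the level, in UMIs per 10000 UMIs of the class, differed at least 2-fold in the same direction in WT and in ROBO, with each interval of the ratio leaving out 1. By this rule 8.82% of 10099 genes tested were higher and 18.2% were lower in villus-like cells. The median log2 ratio of the 8 genes was 2.36 in WT and 2.97 in ROBO, beside medians of -0.40 and -0.45 over all genes tested. Scaling by the median gene in place of total UMIs shifts all log2 ratios of this comparison up by 0.31 in WT and 0.34 in ROBO, since the median gene with at least 100 UMIs stood at -0.31 and -0.34. On that scale the 7 genes were still counted as higher, and *Tfrc* stood at log2 ratios of -0.85 in WT and -1.19 in ROBO, with the WT value no longer past 2-fold.

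**Figure D1:**
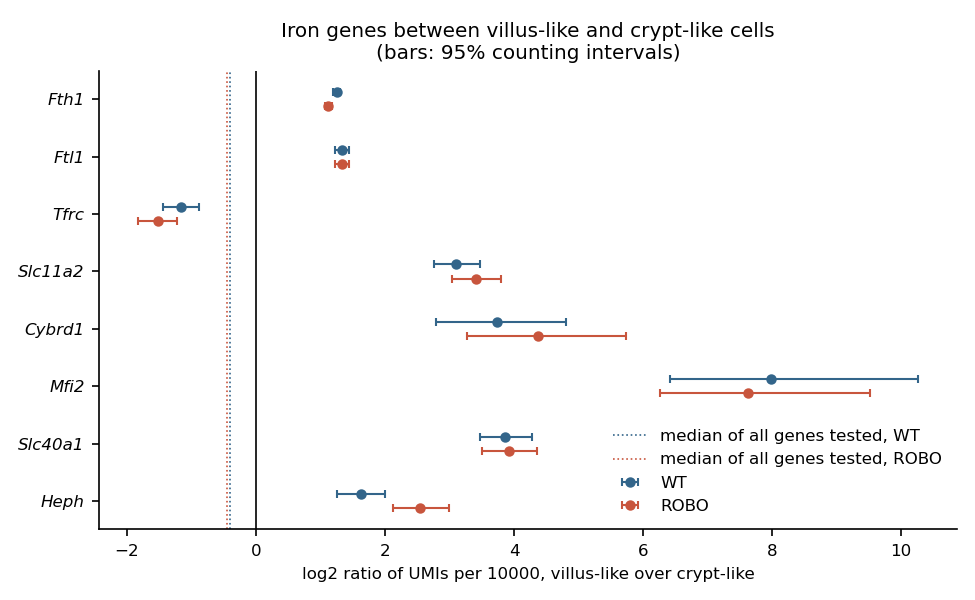
Log2 ratio of UMIs per 10000 in villus-like over crypt-like cells (x axis) for each gene (y axis), with 1 point and its 95% counting interval per genotype and dotted lines at the medians of all genes tested. *Tfrc* lies left of 0 in both genotypes, at -1.16 and -1.52, and the other genes lie right of it, from 1.12 for *Fth1* in ROBO to 7.98 for *Mfi2* in WT.

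Ferritin is a shell of heavy and light chains that stores iron in the cytosol. *Fth1*, on chr19:9980598-9985098 of GRCm38, makes the heavy chain, which oxidizes the iron as it enters the shell. It had the most UMIs of the 8 genes, 13629 in WT and 12912 in ROBO, and was detected in 93.5% and 95.7% of all cells. Its level was 36.1 UMIs per 10000 in WT and 39.7 in ROBO stem cell-like cells, and 36.2 and 36.6 in transiently amplifying-like cells. In bottom enterocyte-like cells it was 63.7 in WT and 73.7 in ROBO, in middle ones 94.4 and 91.8, and in top ones 53.7 and 55.5. *Fth1* thus peaked in the middle of the enterocyte classes in both genotypes, and its interval there (91.8 to 97.1 in WT, 89.2 to 94.4 in ROBO) overlapped that of no other absorptive class. Secretory-like cells, with 24.3 and 20.6, stood lowest of the 6 epithelial classes that held over 100 cells. Immune-like cells had 46.2 in WT and 24.9 in ROBO. From crypt-like to villus-like cells the log2 ratio was 1.25 in WT (1.2 to 1.31) and 1.12 in ROBO (1.06 to 1.17).

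*Ftl1*, on chr7:45457944-45459884, makes the light chain, which helps the mineral core of iron to form. It had 3133 UMIs in WT and 3400 in ROBO. Levels were 10.6 and 12 UMIs per 10000 in WT and ROBO stem cell-like cells, 7.29 and 8.01 in transiently amplifying-like cells, and 7.25 and 10.5 in bottom enterocyte-like cells. In middle enterocyte-like cells they were 21.0 and 24.1, and in top ones 24.2 and 25.4. *Ftl1* therefore did not peak in the middle class as *Fth1* did, since its intervals in middle and top cells overlapped in both genotypes. Its log2 ratio from crypt-like to villus-like cells was 1.33 in both WT and ROBO (1.22 to 1.44 in each). In crypts, *Ftl1* was higher in stem cell-like than in transiently amplifying-like cells. Log2 ratios of amplifying over stem were -0.54 in WT (-0.70 to -0.38) and -0.58 in ROBO (-0.74 to -0.42), short of 2-fold. The amplifying class joined a cluster led by *Sfrp5* (410 cells, median depth 3012 UMIs) and another led by *Rn45s* (343 cells, median depth 877 UMIs). The name of the *Rn45s* cluster was a close call, from 4 amplifying markers at a mean log2 ratio of 1.09 beside 0.89 for stem cell markers. Median depths of the stem cell-like clusters were 2385 UMIs (led by *Igfbp4*) and 820.5 (led by *Ppan*). The difference in *Ftl1* lay in the *Sfrp5* cluster, at 6.22 UMIs per 10000 in WT and 7.03 in ROBO. The *Rn45s* cluster, at 11.33 and 11.61, stood near the stem cell-like clusters led by *Igfbp4* (10.84 and 12.03) and *Ppan* (9.73 and 11.91).

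The balance between the 2 ferritin genes moved along the axis. UMIs of *Fth1* per UMI of *Ftl1* were 3.41 in WT and 3.31 in ROBO stem cell-like cells and 4.96 and 4.56 in transiently amplifying-like cells. They were 8.79 (7.66 to 10.1) and 7.03 (6.18 to 8.03) in bottom, 4.49 and 3.82 in middle, and 2.22 (1.94 to 2.54) and 2.18 (1.96 to 2.44) in top enterocyte-like cells. The ratio was thus highest in the bottom class and lowest among absorptive cells in the top class, in both genotypes. The 3′ kit gives no comparison of levels between genes, so the change of the ratio between classes is the measurement, not its size in a class. GENCODE M21 holds 5 entries named as pseudogenes of *Fth1* or *Ftl1*, *Fthl17* relatives not counted and *Ftl1-ps1*, which it types as protein coding, included. None of them is listed in the matrices, and how reads shared with them were counted is not given in the sources used here.

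**Figure D2:**
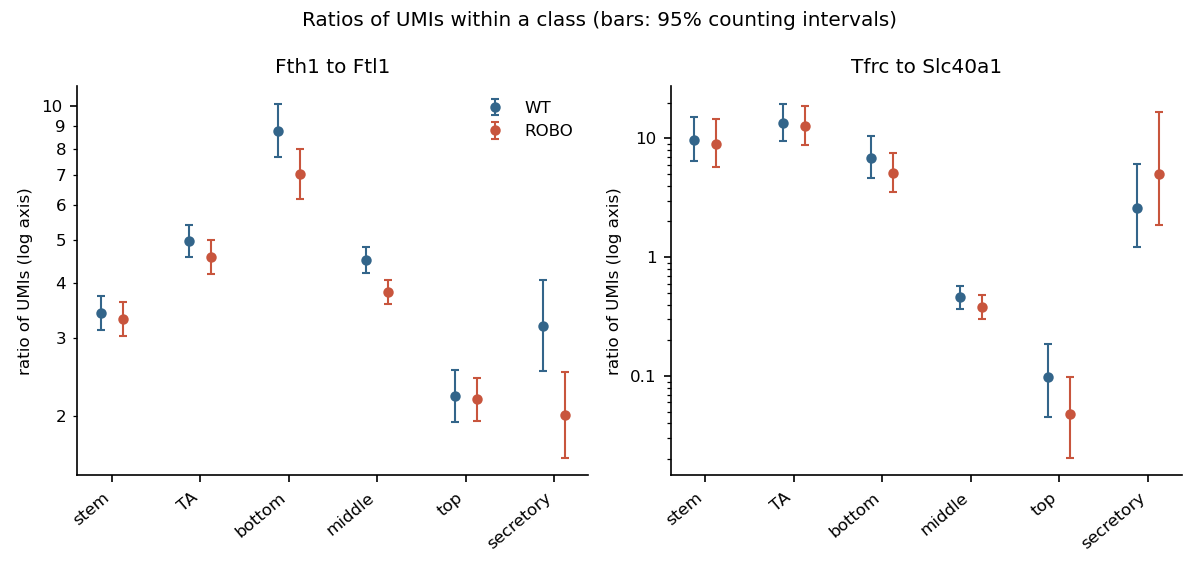
UMIs of *Fth1* per UMI of *Ftl1* (left) and of *Tfrc* per UMI of *Slc40a1* (right) in 6 classes, on log axes, with 1 point and its 95% counting interval per genotype. The first ratio is highest in bottom enterocyte-like cells, at 8.79 and 7.03, and the second falls to 0.0980 and 0.0485 in top enterocyte-like cells.

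*Tfrc*, on chr16:32608920-32632794, makes the transferrin receptor, which brings transferrin-bound iron into the cell from the blood. It had 1079 UMIs in WT and 923 in ROBO. Its level was 4.04 UMIs per 10000 in WT and 3.57 in ROBO stem cell-like cells, 5.09 and 5.41 in transiently amplifying-like cells, and 6.33 and 7.08 in bottom enterocyte-like cells. It then stood at 2.44 and 2.03 in middle and at 0.752 (0.361 to 1.38) and 0.436 (0.188 to 0.860) in top enterocyte-like cells, the latter from 10 and 8 UMIs. Among these classes *Tfrc* was thus highest in bottom and lowest in top enterocyte-like cells. In ROBO the intervals of all 5 absorptive classes were apart from their neighbours' in this order, while in WT those of bottom and amplifying cells overlapped. The log2 ratio of villus-like over crypt-like cells was -1.16 in WT (-1.44 to -0.89) and -1.52 in ROBO (-1.83 to -1.23). Secretory-like cells had 2.06 and 2.07.

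Uptake across the brush border runs through a different set of genes. *Slc11a2*, on chr15:100387898-100425072, makes DMT1, the transporter that carries ferrous iron in from the gut lumen. It had 433 UMIs in WT and 514 in ROBO. Levels were 0.646 and 0.564 UMIs per 10000 in WT and ROBO stem cell-like cells, 0.504 and 0.510 in transiently amplifying-like cells, and 0.858 and 1.74 in bottom enterocyte-like cells. In middle enterocyte-like cells they were 4.91 and 5.76, and in top ones 4.51 and 5.34, with overlapping intervals between these classes. *Slc11a2* was thus higher in middle than in bottom cells of both genotypes. In ROBO it was already higher in bottom than in crypt-like cells, with a log2 ratio of 1.71 (1.13 to 2.27). In WT that ratio was 0.61 (-0.07 to 1.25). The log2 ratio of *Slc11a2* in villus-like over crypt-like cells was 3.10 in WT (2.75 to 3.47) and 3.41 in ROBO (3.03 to 3.8). Few cells held much of it, since the 5 richest cells gave 16.2% of its UMIs in WT and 21.6% in ROBO. *Gm5475* overlaps it on the other strand, and whether counting used strand is not given in the sources used here.

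*Cybrd1*, on chr2:71117923-71142926, makes DCYTB, a brush-border reductase that turns ferric into ferrous iron. It was the least abundant of the 8, with 78 UMIs in WT and 89 in ROBO. Crypt-like cells held 11 of the WT UMIs and 7 of the ROBO UMIs, and bottom enterocyte-like cells 1 and 0. The level was 0.982 in WT and 0.937 in ROBO middle enterocyte-like cells and 0.902 (0.466 to 1.58) and 1.64 (1.10 to 2.34) in top ones. Middle and top cells thus held most of its UMIs, 62 of 78 in WT and 78 of 89 in ROBO, with a log2 ratio of villus-like over crypt-like cells of 3.73 in WT (2.79 to 4.80) and 4.37 in ROBO (3.26 to 5.74). The 5 richest cells gave 25.6% and 36.0% of its UMIs, so these levels rest on few cells.

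*Mfi2*, also named *Meltf*, on chr16:31878810-31899020, makes melanotransferrin, a membrane-bound relative of transferrin that binds iron. It had 325 UMIs in WT and 431 in ROBO. Top enterocyte-like cells held 86.5% of the WT UMIs and 86.1% of the ROBO UMIs, at levels of 21.1 (18.7 to 23.8) and 20.2 (18.2 to 22.4) per 10000. Middle enterocyte-like cells had 0.786 and 1.09, and stem cell-like, bottom enterocyte-like and secretory-like cells had 0 UMIs in both genotypes. *Mfi2* was thus nearly a gene of the top class, but it stood among the leading genes of that cluster, so this is a description of the cluster and no test. The log2 ratio of villus-like over crypt-like cells was 7.98 in WT (6.42 to 10.26), where crypt-like cells held 3 UMIs, and 7.63 in ROBO (6.27 to 9.52), where they held 4.

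Export is the work of ferroportin, made by *Slc40a1* on chr1:45908068-45926523, the only known iron exporter of mammalian cells. *Slc40a1* had 471 UMIs in WT and 533 in ROBO. Levels were 0.420 and 0.401 UMIs per 10000 in WT and ROBO stem cell-like cells, 0.381 and 0.430 in transiently amplifying-like cells, and 0.922 and 1.38 in bottom enterocyte-like cells. They were 5.28 (4.67 to 5.95) and 5.35 (4.73 to 6.02) in middle and 7.67 (6.25 to 9.31) and 9.00 (7.68 to 10.5) in top enterocyte-like cells. *Slc40a1* was thus higher in each enterocyte class than in the one below it in both genotypes, without overlap of the intervals. Its log2 ratio of villus-like over crypt-like cells was 3.86 in WT (3.47 to 4.28) and 3.92 in ROBO (3.51 to 4.35). For top cells over the cluster led by *Cubn*, the largest of the middle class, its log2 ratio was 0.22 in WT (-0.14 to 0.58) and 0.28 in ROBO (-0.02 to 0.59), so against that cluster alone both intervals held 0. Macrophages also use ferroportin. Their marker list summed to 2.78 UMIs per 10000 in WT and 3.00 in ROBO top cells and to 0.298 and 0.270 in crypt-like cells, with *Csf1r* at 2.63 and 3.00 and *C1qa*, *C1qb* and *Adgre1* at 0 in top cells, and the part of such cells in the *Slc40a1* level was not tested. Immune-like cells, whose leading genes *Gzma*, *Gzmb* and *Cd7* are those of lymphocytes, held 0 UMIs of *Slc40a1*. That count allows up to 0.541 per 10000 in WT and 0.858 in ROBO. The macrophage list summed to 11.2 in WT and 3.72 in ROBO immune-like cells, with *C1qb* at 3.61 and 0. Macrophage markers were thus present in that class as well.

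*Heph*, on chrX:96455359-96574485, makes hephaestin, the oxidase that works beside ferroportin so that exported iron can bind transferrin. It had 283 UMIs in WT and 298 in ROBO. Its level was 0.695 and 0.455 in WT and ROBO stem cell-like cells, 0.728 and 0.470 in transiently amplifying-like cells and 0.890 and 1.58 in bottom enterocyte-like cells. It was 2.36 and 2.89 in middle and 1.58 (0.977 to 2.41) and 2.18 (1.56 to 2.97) in top enterocyte-like cells. *Heph* thus had the shallowest gradient of the transport genes that were higher in the villus, with log2 ratios of 1.62 in WT (1.25 to 2.00) and 2.54 in ROBO (2.12 to 2.99), and its intervals in middle and top cells overlapped. *Hsf3* on the other strand and a pair of pseudogenes overlap the locus.

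**Figure D3:**
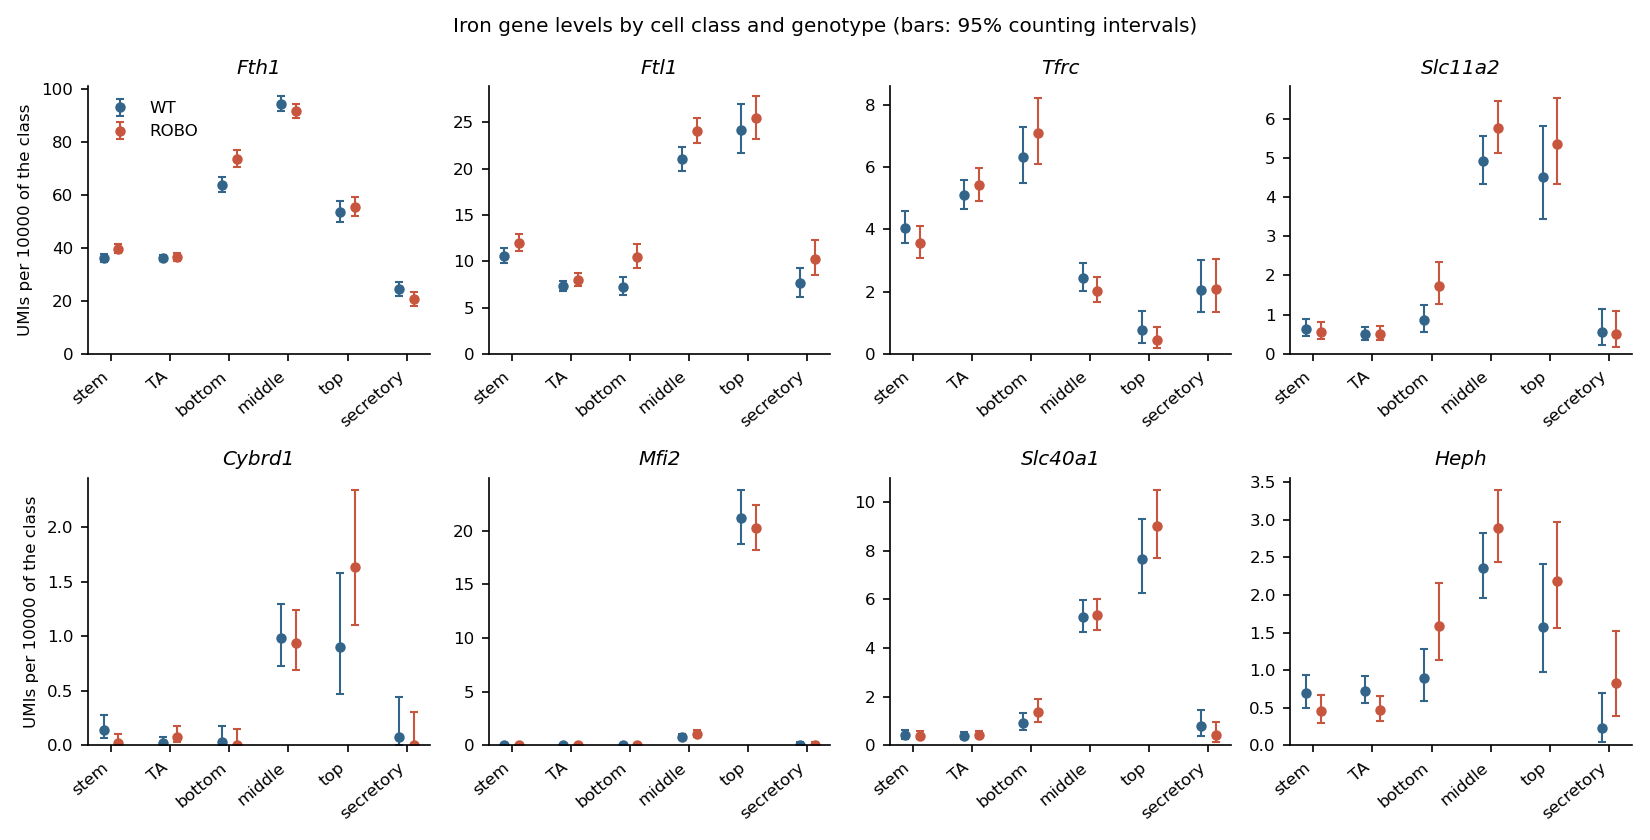
UMIs per 10000 UMIs of the class (y axes, each from 0) in 6 classes (x axes; TA, transiently amplifying-like), with 1 point and its 95% counting interval per genotype. *Fth1* peaks in middle enterocyte-like cells (94.4 and 91.8), *Tfrc* in bottom ones (6.33 and 7.08), and *Mfi2* and *Slc40a1* in top ones.

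Shares of cells with a UMI had the same direction as the levels between crypt-like and villus-like cells at even depth. Each cell was thinned to 900 UMIs, which left out 355 WT and 281 ROBO cells, and cells of both genotypes were pooled. *Slc40a1* was found in 3.6% of crypt-like cells (37 of 1029, 2.54 to 4.92%) and 35.2% of villus-like cells (199 of 565, 31.3 to 39.3%), and *Slc11a2* in 4.28% and 29.7%. For *Heph* the shares were 4.76% and 17%, and for *Cybrd1* 0.680% and 7.08%. Free RNA in the droplets can give such UMIs, and immune-like cells were taken as the comparison, though that class also held the macrophage markers given before. They held *Slc40a1*, *Cybrd1* and *Mfi2* in 0 of 36 cells each, a count that allows shares up to 8.33%, and *Slc11a2* and *Heph* in 2.78% each (1 of 36). Villus-like shares of *Slc40a1* and *Slc11a2* stood above that limit and above the interval of the immune-like share (0.0703 to 14.5%). The villus-like share of *Heph* (14.0 to 20.3%) was higher than its immune-like share, but the intervals overlapped. Crypt-like shares of *Slc40a1*, *Slc11a2* and *Heph* could not be told apart from those of immune-like cells at this number of immune-like cells. The villus-like share of *Cybrd1*, 7.08%, lay below the 8.33% that 0 of 36 immune-like cells allow, so it could not be told apart from the immune-like share. It stood (5.11 to 9.52%) above its crypt-like share (0.274 to 1.40%) and above the 1.42% that its 0 of 212 bottom enterocyte-like cells allow. *Mfi2* was found in 56.8% of top enterocyte-like cells (88 of 155, 48.6 to 64.7%) and in 2.93% of middle ones (56.1% and 5.48% without thinning, at median depths of 1195 and 1617 UMIs). *Tfrc* was found in 31.4% of crypt-like cells and in 12.7% of villus-like cells, the latter no higher than the 13.9% of immune-like cells (5 of 36). Without thinning the shares were 6.58% and 46.7% for *Slc40a1*, 8.73% and 40.2% for *Slc11a2*, 9.73% and 29.1% for *Heph*, 1.07% and 11.2% for *Cybrd1* and 47.1% and 20.6% for *Tfrc* in crypt-like and villus-like cells. Median depths were 1545.5 UMIs in crypt-like, 1432 in villus-like and 1749.5 in immune-like cells.

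The middle enterocyte-like class was not uniform. One cluster of 287 cells had among its leading genes *Cubn*, *Gm2061* and *Lct*, the lactase gene of the suckling gut, another of 134 cells was led by *Sis*, the sucrase-isomaltase gene of the weaned gut, and *Reg3a*, and the last of 90 cells by the stress-induced genes *Cxcl10*, *Fosb* and *Atf3*. Between the first pair, *Tfrc* was higher in the *Sis* cluster, at 4.28 against 1.76 UMIs per 10000 in WT and 3.10 against 1.37 in ROBO. *Slc40a1* was lower there, at 2.81 against 6.58 in WT and 2.31 against 7.39 in ROBO. *Mfi2* was lower as well, with 0 UMIs against 30 in WT and 2 against 48 in ROBO. Taking a floor of 3 UMIs for the 0 gives a level 5.38-fold lower in WT, where the interval of the log2 ratio ends at -2.04. In ROBO the log2 ratio was -3.83 (-6.92 to -1.90). Thus 1 of the 8 genes was at least 2-fold higher in the *Sis* cluster in both genotypes and 2 were lower, beside 2.86% and 2.35% of 6081 genes tested.

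The log2 ratios of the *Sis* over the *Cubn* cluster were 1.28 in WT (0.72 to 1.85) and 1.18 in ROBO (0.55 to 1.83) for *Tfrc* and -1.23 (-1.75 to -0.74) and -1.68 (-2.22 to -1.17) for *Slc40a1*. *Slc11a2* went the other way from *Slc40a1*, at 6.48 against 4.39 UMIs per 10000 in WT and 8.89 against 4.69 in ROBO, log2 ratios of 0.56 (0.16 to 0.96) and 0.92 (0.57 to 1.28) that did not reach 2-fold. *Fth1* stood at 111 against 91.8 in WT and 110 against 87.5 in ROBO, and *Ftl1* at 13.5 against 24.5 and 20.5 against 25.2. The intervals of *Heph* held 0 in both genotypes, and *Cybrd1*, with 7 against 38 UMIs in WT and 15 against 31 in ROBO, had log2 ratios of -1.55 and -0.29. The *Sis* cluster thus had the brush-border importer gene at its highest level of any cluster in either genotype, beside a lower level of the exporter gene. Both clusters come from mice of 1 age.

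The top enterocyte-like cluster, led by *Gpx3*, *Mfi2* and *Ada*, was set against the *Cubn* cluster by the same rule. *Mfi2* was higher, with log2 ratios of 4.29 in WT and 3.55 in ROBO, and *Tfrc* was lower, with -1.23 (-2.38 to -0.23) and -1.65 (-2.96 to -0.53), while the other 6 genes did not reach 2-fold in both genotypes. That made 1 of 8 genes higher and 1 lower, beside 2.33% and 5.62% of 5926 genes tested. *Fth1* was lower without reaching 2-fold, at 53.7 against 91.8 in WT and 55.5 against 87.5 in ROBO, whereas *Ftl1* differed little, with log2 ratios of -0.02 (-0.21 to 0.17) and 0.01 (-0.16 to 0.18). Against the *Cubn* cluster, the lower *Fth1* to *Ftl1* ratio of top cells thus came with lower *Fth1* at like *Ftl1*. Against the bottom class, where the ratio was highest, top cells differed in both genes. *Ftl1* was higher in top cells, at 24.2 against 7.25 in WT and 25.4 against 10.5 in ROBO. *Fth1* was lower, at 53.7 against 63.7 and 55.5 against 73.7.

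**Figure D4:**
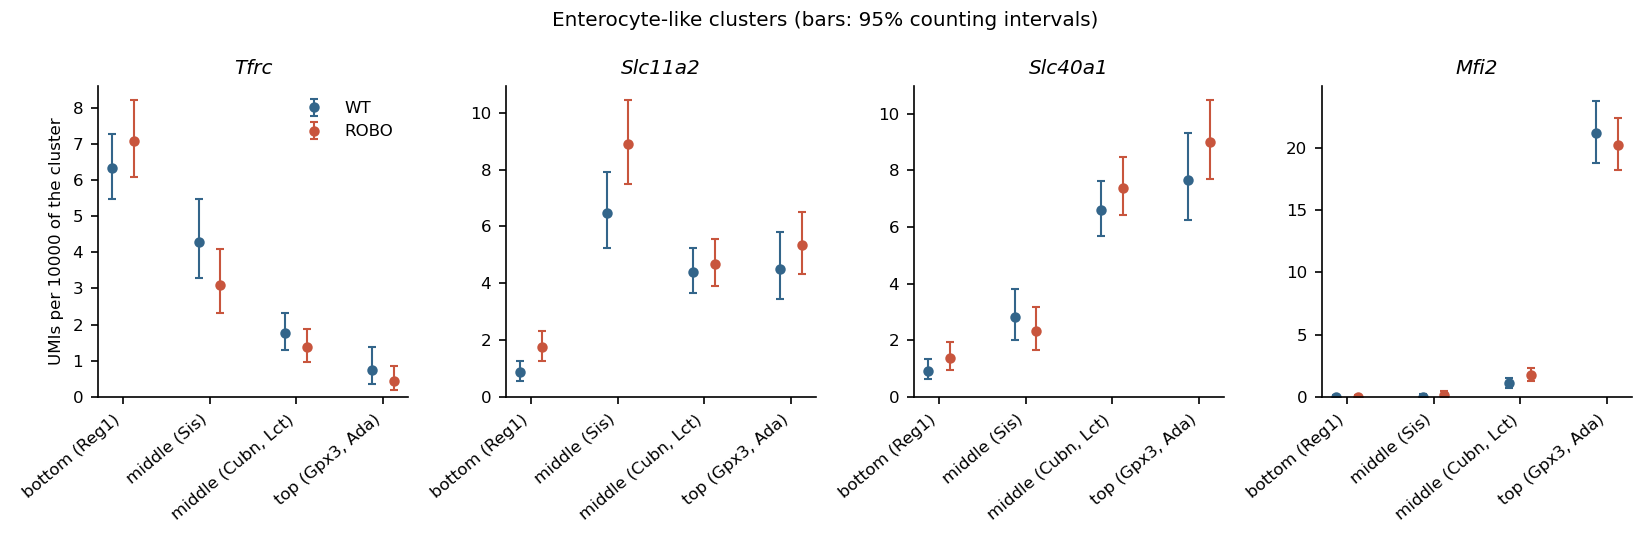
UMIs per 10000 UMIs of the cluster (y axes, each from 0) for 4 genes in the bottom, *Sis*, *Cubn* and top enterocyte-like clusters (x axes), with 1 point and its 95% counting interval per genotype. *Tfrc* falls from 6.33 and 7.08 to 0.752 and 0.436 in this order while *Slc40a1* rises, and *Slc11a2* is highest in the *Sis* cluster.

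Lower on the axis the genes moved less. Bottom enterocyte-like over crypt-like cells, 1 of 6 genes with at least 20 UMIs was higher by the rule, *Slc40a1*, with log2 ratios of 1.22 in WT (0.52 to 1.88) and 1.73 in ROBO (1.07 to 2.37), and 0 were lower, beside 2.52% higher and 2.93% lower of 9763 genes tested. *Fth1* was at 0.82 and 0.96, just short of 2-fold. *Slc11a2* and *Heph* passed 2-fold in ROBO only, at 1.71 (1.13 to 2.27) and 1.77 (1.16 to 2.37). In WT they stood at 0.61 (-0.07 to 1.25) and 0.32 (-0.34 to 0.93). From stem cell-like to transiently amplifying-like cells 0 of 6 genes reached 2-fold in either direction, beside 2.06% and 0.662% of 9516 genes tested. Ratios with the same sign in both genotypes and intervals leaving out 0 were those of *Ftl1*, given before, and of *Tfrc*, at 0.33 in WT (0.11 to 0.56) and 0.60 in ROBO (0.35 to 0.85). For *Tfrc* too the difference lay in the *Sfrp5* cluster, at 5.35 UMIs per 10000 in WT and 5.93 in ROBO. The *Rn45s* cluster, at 4.12 and 3.50, stood near the stem cell-like clusters, at 3.94 and 3.43 and at 4.37 and 4.02.

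Cells of the 5 absorptive classes were also ordered without clusters, by a score of enterocyte markers less crypt markers that held no iron gene, and cut into 5 equal groups over both genotypes. From the lowest to the highest group *Slc40a1* went from 0.219 to 6.41 UMIs per 10000 in WT and from 0.143 to 7.05 in ROBO. *Slc11a2* went from 0.485 to 5.79 and from 0.448 to 5.49, and in group 4 of the 5 it stood at 1.74 in WT (1.37 to 2.19) and 3.96 in ROBO (3.35 to 4.64). *Tfrc* went from 5.58 to 2.05 in WT and from 5.59 to 1.5 in ROBO. Its highest level was in the lowest group in both genotypes, so its peak in bottom enterocyte-like cells was not seen in this order. *Slc11a2* and *Slc40a1* thus stayed below 1 UMI per 10000 through the lower 3 groups, and *Tfrc* took its largest step down into the last.

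Likeness of pattern was read from log2 levels over 14 points, 7 epithelial classes in each genotype, which share their libraries, so the values are descriptions. Among the 8 genes the highest Pearson r was 0.95, between *Slc11a2* and *Slc40a1*, followed by 0.91 between *Ftl1* and *Cybrd1* and 0.90 between *Slc40a1* and *Heph*. *Tfrc* had negative r with 5 of the other 7, the lowest being -0.78 with *Mfi2*. Of 5107 genes with at least 200 UMIs, those nearest to *Slc11a2* were *Slc31a1*, a copper transporter gene, *Lpgat1* and *H2.Bl* (r 0.97 to 0.98), and those nearest to *Slc40a1* were *Xdh*, the xanthine dehydrogenase gene, *Cdr2* and *Clec2h* (0.97 to 0.98). Near to *Fth1* were *Acadl* and *Slc25a45*, and nearest to *Ftl1* were *Bst1*, *Uap1l1* and *Gm2061*, and to *Tfrc* *Mpc2*, *Canx* and *Vdac1*. Nearest to *Cybrd1* were *Pdzk1*, *Gm2061* and *Ace*, to *Heph* *Rragd*, *Metrnl* and *Sec23a*, and to *Mfi2* *Renbp*, *Lztr1* and *Gpx3*.

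The opposite course of the transferrin receptor and ferroportin genes was seen in their ratio as well. UMIs of *Tfrc* per UMI of *Slc40a1* were 9.62 in WT and 8.91 in ROBO stem cell-like cells, 13.4 and 12.6 in transiently amplifying-like cells, and 6.86 and 5.11 in bottom enterocyte-like cells. They were 0.461 and 0.380 in middle and 0.0980 (0.0456 to 0.188) and 0.0485 (0.0206 to 0.0978) in top enterocyte-like cells. Within the middle class the ratio was 1.52 and 1.34 in the *Sis* cluster and 0.268 and 0.185 in the *Cubn* cluster.

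Other genes of iron handling were read from a list of 69, of which 67 were listed and 59 are not among the 8. Of 41 with enough UMIs, 3 were higher and 3 lower in villus-like cells, and their median log2 ratios of -0.51 in WT and -0.45 in ROBO stood near those of all genes. *Slc46a1*, a folate and heme carrier gene, was higher at 2.74 against 0.251 UMIs per 10000 in WT and 2.47 against 0.201 in ROBO. *Slc39a14*, a metal importer gene, was at 4.66 against 1.55 and 4.97 against 1.83, and *Epas1*, the gene of the hypoxia factor HIF-2α, at 0.825 against 0.152 and 0.704 against 0.294. Among those lower were *Pcbp2*, an iron chaperone gene, at 3.91 against 8.27 and 4.37 against 8.91, and *Lyrm4*, a gene of iron-sulphur cluster assembly, at 0.140 against 0.403 and 0.144 against 0.394. Genes of the 2 iron regulatory proteins were not counted, with *Aco1* at 1.96 against 1.30 in WT and 1.90 against 1.51 in ROBO and *Ireb2* at 1.06 against 0.999 and 1.25 against 1.13. The 8 genes, all of which passed the rule in this comparison, come from the same list and were picked by name with earlier results known.

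Between the genotypes none of the 8 genes passed the rule over all cells. Here 0 of 8 reached 1.5-fold with the interval leaving out 1, beside 4.49% of 10634 genes tested. *Mfi2* came nearest, at 1.21 UMIs per 10000 in WT against 1.77 in ROBO and thus a log2 ratio of 0.55 (0.34 to 0.76), but within top enterocyte-like cells, which hold most of it, the ratio was -0.06 (-0.29 to 0.17), and those cells numbered 102 in WT and 128 in ROBO. *Slc11a2* was at 0.39 (0.20 to 0.58), *Slc40a1* at 0.32 (0.14 to 0.50) and *Ftl1* at 0.26 (0.19 to 0.33), and *Tfrc* and *Fth1* at -0.08 and 0.07.

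Within classes 3 ratios passed 1.5-fold. In bottom enterocyte-like cells *Slc11a2* had 27 UMIs in WT and 44 in ROBO, levels of 0.858 and 1.74 and a log2 ratio of 1.02 (0.30 to 1.77), and *Heph* had 28 and 40, levels of 0.890 and 1.58 and a ratio of 0.83 (0.10 to 1.58). That made 2 of 6 genes in a class in which 10.5% of 5249 genes tested passed, and in which the median depth was 1541 UMIs per cell in WT and 2443 in ROBO. At an even depth of 1500 UMIs per cell, *Slc11a2* was found in 15.6% of WT cells (12 of 77, 8.32 to 25.6%) and 13.4% of ROBO cells (11 of 82, 6.89 to 22.7%), so its share was not higher in ROBO, while at 900 UMIs the shares were 9.01% and 12.9% with overlapping intervals. *Heph* was found in 9.09% (3.73 to 17.8%) and 24.4% (15.6 to 35.1%) at 1500 UMIs and in 6.31% and 14.9% at 900. Without thinning the shares were 14.3% and 21.8% for *Slc11a2* and 11.6% and 31.7% for *Heph*. Without the richest cell of the class in each genotype, the log2 ratio of *Slc11a2* was 0.52 and no longer passed, and that of *Heph* was 0.88. Whether *Slc11a2* passed in bottom cells thus turned on 1 cell per genotype. In transiently amplifying-like cells *Heph* was lower in ROBO, with 35 UMIs against 65 in WT and a log2 ratio of -0.63 (-1.27 to -0.02), which made 1 of 6 genes beside 7.88% of 8516 tested. Over 11 alternatives that could change these calls, *Slc11a2* passed again in bottom cells in 7, *Heph* in bottom cells in 4 and *Heph* in amplifying cells in 6.

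In stem cell-like cells 0 of 6 genes passed (4.73% of 7689 tested), where *Heph* had a log2 ratio of -0.61 (-1.38 to 0.13) and passed as lower in 3 of the 11 alternatives, in middle enterocyte-like cells 0 of 8 (4.82% of 6533), in top ones 0 of 7 (6.64% of 2622) and in secretory-like cells 0 of 3 (8.78% of 2449). The intervals limit what could have been missed. In middle enterocyte-like cells the log2 ratio of *Fth1* was -0.04 (-0.10 to 0.02), that of *Slc40a1* 0.02 (-0.23 to 0.27) and that of *Slc11a2* 0.23 (-0.02 to 0.48), all within 1.5-fold. For *Cybrd1* in top cells it was 0.86 (-0.15 to 1.96), so that equal levels and a difference of over 2-fold both lie within the interval. Ratios of *Ftl1* were above 0 in each of the 6 classes, from 0.07 in top to 0.53 in bottom enterocyte-like cells, and the intervals left out 0 in stem cell-like, bottom, middle and secretory-like cells. No value for the spread between mice was at hand, so these ratios describe the pools of cells and not the genotypes.

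**Figure D5:**
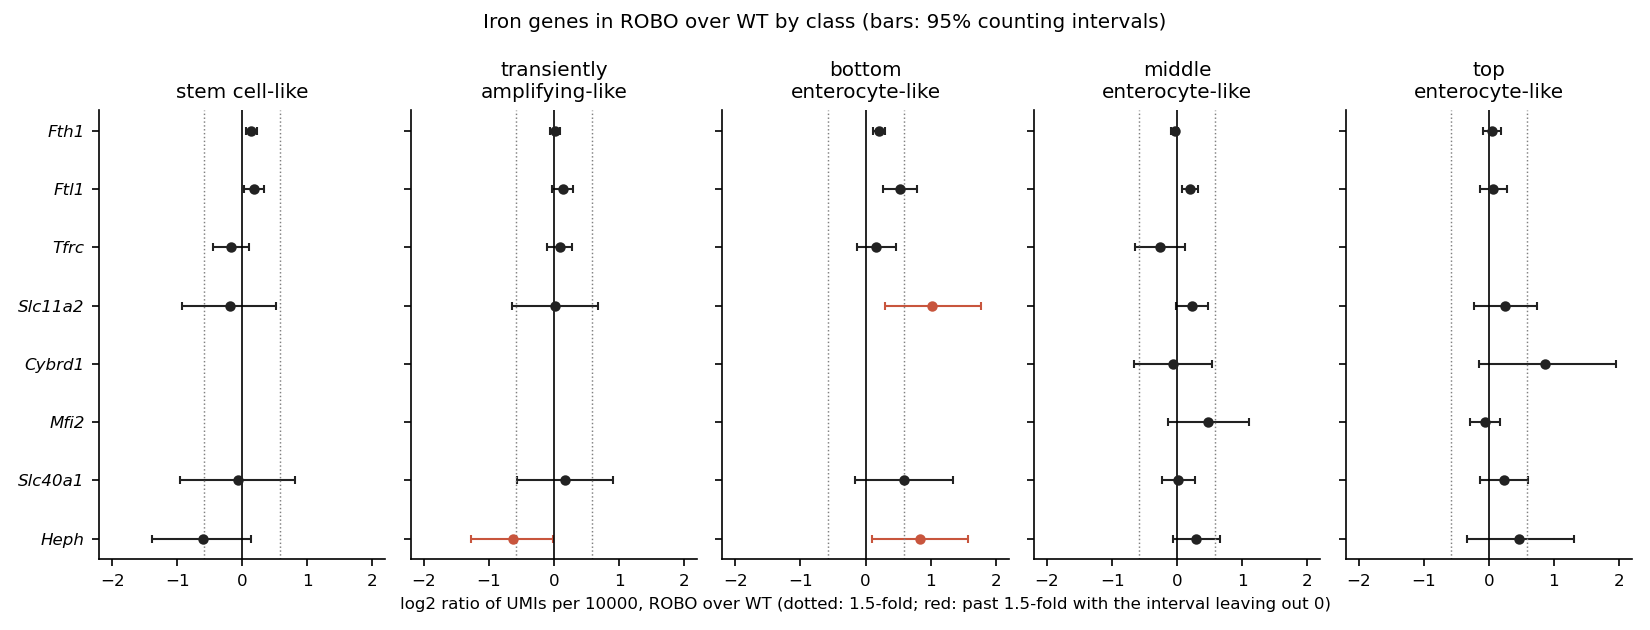
Log2 ratio of UMIs per 10000 in ROBO over WT (x axes) for each gene with at least 20 UMIs (y axis) in 5 absorptive classes, with 95% counting intervals and dotted lines at 1.5-fold. Past 1.5-fold with the interval leaving out 0 (red) are *Slc11a2* at 1.02 and *Heph* at 0.83 in bottom enterocyte-like cells and *Heph* at -0.63 in transiently amplifying-like cells.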

How the data were processed

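Cells of WT and ROBO small intestine were captured with a droplet 3′ kit, and the authors built raw UMI counts per gene and cell in BaseSpace Sequence Hub, deposited without normalization as 1 matrix per genotype. The submitters' notes name mm10 (GRCm38); aligner, annotation and strand are not given in the sources used here. Counts were clustered with Seurat 5.3.0 in R 4.3.3 (log-normalized to 10000, phase scores regressed, 2000 variable genes without the iron list, 20 principal components, resolution 0.8). Clusters were named from marker lists by a scoring rule set after they were seen, at least 3 markers raised 1.5-fold in 10% of cells or more. Scrublet (scanpy 1.11.5) called 2 WT and 4 ROBO doublets, which were kept. UMIs were summed per class and genotype with exact Poisson intervals for levels, conditional exact intervals for ratios and Clopper-Pearson intervals for shares (scipy 1.17.1). Only the intervals of ratios and the 2-fold rule were tested on simulated data. These were Poisson sums, which leave out the holding of UMIs by few cells. A gene needed 20 UMIs to be counted. Cell depth ranged from 463 to 13756 UMIs. For a count of 0 the limit is that of 3 counts. No p-value was computed. The 8 genes and all lists were chosen with earlier results of these data known, and the comparisons between single clusters, of bottom with crypt-like cells and of amplifying with stem cell-like cells were added after the clusters were seen. Genes named are the 8, list genes that passed or have a known part in intestinal iron handling, for each of the 8 the 3 genes with the highest Pearson r, leading genes and markers; some genes that this rule names are not reported here. Alternatives changed the clustering, cells, weights, scaling, minimum count and thinning. The cell names hold no barcodes, so barcodes shared between libraries could not be counted. Positions are from GENCODE M21 (GRCm38), and *Mfi2* was matched as *Meltf*.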

Additional observations from a re-analysis of the deposited data

Results flagged for a closer look

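Fibroblast-like cells entered no comparison, yet *Cybrd1*, which makes a brush-border reductase, was detected there. It had 6 UMIs over 8 cells, in 2 of 4 WT cells (2 UMIs) and 3 of 4 ROBO cells (4 UMIs). The sum and the ROBO count were above the 3 counts that a count of 0 allows, and the WT count was below. The levels were 3.69 UMIs per 10000 in WT (0.446 to 13.3) and 3.79 in ROBO (1.03 to 9.72), beside 0.982 and 0.937 in middle enterocyte-like cells. After fibroblast markers, those of top enterocytes were the most raised in this cluster (mean log2 ratio 2.83). The part of enterocyte RNA in these counts was not tested.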

How the results depend on the processing

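Over 17 alternatives the number of the 8 genes higher in villus-like cells was 6 or 7, and every one of the 269 log2 ratios of villus-like over crypt-like cells kept its sign (216 stayed within the interval of the reported value). Of the 7 genes, only the ferritin genes fell short of 2-fold in any alternative. Their lowest log2 ratios were 0.97 for *Fth1* in ROBO and 0.97 for *Ftl1* in WT. The 1 gene lower, *Tfrc*, fell short of 2-fold in WT or in both genotypes, so that the number became 0, at a resolution of 0.5, with 30 principal components, with median-of-ratios scaling and with bottom enterocyte-like cells counted as villus-like; its log2 ratios stayed below 0, at -0.42 and -0.59 in the last. The number of ratios of ROBO over WT past 1.5-fold, summed over 5 absorptive classes, was 3 as reported, 1 at a resolution of 0.5, 1 with 3000 variable genes, 1 with a minimum of 100 UMIs, and 8 with each cell given the same weight, where no interval was required. Over all cells it was 0 as reported and 1, *Mfi2* at a log2 ratio of 0.60, in cells with at least 500 genes. Of 514 alternative ratios of ROBO over WT 471 kept their sign. UMIs per cell and leaving out the *Rn45s* or the *Cxcl10* cluster were chosen after seeing the data, and left the villus numbers at 7 and 1. So was leaving out the richest cell of each class, which gave 2 ratios past 1.5-fold within classes. Leaving out each genotype's richest cell over all classes left the 3 ratios unchanged, and was not counted with the equal weight among the 11 alternatives.

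No paired analysis was possible because cell names give the genotype and not the sample. For the same reason leaving out each sample in turn was not run. Depth limits *Cybrd1* and *Mfi2* below the villus and all genes in rare classes, where intervals span several fold. The cause of the changed numbers was not tested.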
